A study of Homo sapiens with 6 samples.

Results

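The 8 genes described here, *ACTB*, *HPRT1*, *TBP*, *GUSB*, *YWHAZ*, *SDHA*, *PPIA* and *RPLP0*, are widely used as reference genes in RT-qPCR. They were chosen by name for that use, as the rows of the count table that carry these symbols. No measured value served as a criterion, but earlier results of these data were known when the choice was made. They are 8 of 60655 genes in the table and 8 of the 14507 that passed the expression filter of edgeR (filterByExpr). The question was which of these mRNAs stayed level between IGF2BP3 immunoprecipitation (IP) and the control IP, and how the choice among them would change the enrichment read for a target RNA.

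RNA immunoprecipitation followed by sequencing (RIP-seq) was performed in WaGa cells, an established Merkel cell carcinoma (MCC) line that carries the Merkel cell polyomavirus. Cells of both groups were wild type, received no treatment and were grown in the same medium, and the groups differed only in the antibody. There were 3 libraries from the IgG IP, the negative control, and 3 from the IGF2BP3 IP, which the sample titles call IMP3. The design text calls the 3 replicates independent, all are from 1 cell line, and no library of the input RNA was analysed here, so every value compares the RNA of 2 precipitates and not the RNA of the cells.

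A reference gene is meant to be equally abundant in all samples of an experiment, so that the signal of a gene of interest can be divided by it. In RIP, RNA that sticks to beads and antibody without the protein of interest is found in both precipitates, and a reference RNA for a RIP RT-qPCR has to come down equally with both antibodies. The libraries were scaled to one another here before they were compared. An mRNA called level is therefore level relative to the other RNAs of each precipitate. The total RNA recovered with each antibody was not compared. IGF2BP3 is 1 of a family of oncofetal RNA-binding proteins with RRM and KH domains, known for controlling the stability, transport and translation of bound mRNAs. The paralog IGF2BP1, also called zipcode-binding protein, is known for binding a sequence just behind the stop codon of β-actin mRNA.

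That sequence is shown because *ACTB* was the only one of the 8 genes to hold it. The element searched was CGGAC, then 10 to 25 bases, then ACA, on the sense strand of the 3′ untranslated region (UTR) of the canonical transcript. In *ACTB* it begins at base 2 of the 3′ UTR, at chr7:5527722-5527746 of GRCh38 on the minus strand, and reads as follows, with the searched ends in capitals.
ACTB: CGGACtatgacttagttgcgttACA
The 3′ UTR of *ACTB* has 600 bases. Of 11811 tested genes with a 3′ UTR of known sequence, 539 (4.56%) had the element, and of the 1838 with a 3′ UTR of 400 to 800 bases, 35 (1.90%) had it. It was not found in the 3′ UTRs of the other 7 genes, nor in those of *ACTG1*, *GAPDH*, *HMGA1* and *ZMIZ1*. These letters mark a match and not a binding site, and where there is none, nothing about binding follows.

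Library totals ran from 9758759 to 14886414 counts. The replicate 1 libraries stood apart in both IPs. In a chi-square test of counts over genes between libraries of the same IP, replicate 1 differed from the others by 20.8 and 22.4 per degree of freedom (IgG) and by 18.5 and 21.2 (IGF2BP3). The other two differed by 2.20 and 3.27. Results that rest on replicate 1 are therefore given with and without it. Differences within same-numbered pairs, and fits with the replicate number as a block, are given as well. The sample titles do not say whether same-numbered IPs were made together. Values from pairs and from the block hold only if the number marks a true pairing. All 10 MCC markers looked for (*KRT20*, *ATOH1*, *SOX2*, *INSM1*, *CHGA*, *SYP*, *NCAM1*, *POU4F3*, *ISL1* and *NEFM*) were detected, at a summed level of 4851 to 5471 CPM (counts scaled to the library size after TMM normalization) in the IgG IP and 5139 to 5516 CPM in the IGF2BP3 IP. The blood markers *PTPRC* and *CD3E*, the melanocyte marker *MLANA* and the keratinocyte markers *KRT1* and *KRT14* were at 0 counts in every library. Of the fibroblast markers, *COL1A1*, *COL1A2* and *LUM* reached at most 2 counts and *DCN* was detected, the list summing to 49.2 to 51.3 CPM in the IgG IP and 41.7 to 47.5 CPM in the IGF2BP3 IP.

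None of the 8 mRNAs was past the thresholds of the study, a change of at least 1.5-fold with an adjusted p under 0.05. The study applied these thresholds with DESeq2. Here they were applied with edgeR's quasi-likelihood test, by which 1.16% of all tested genes rose and 0% fell. With DESeq2, 0 of the 8 passed as well, and 281 of 29184 genes rose and 0 fell. The 8 estimates, as log2 changes of IGF2BP3 IP over IgG IP, ran from -0.24 for *HPRT1* to 0.36 for *RPLP0*, a spread of 0.60, or 1.52-fold between the extremes. Their median was -0.04, against -0.01 over all tested genes, and 3 were positive and 5 negative. The median size of the change was 0.14, against 0.15 over all tested genes. Before adjustment, the lowest edgeR p of the 8 was 0.026, for *HPRT1*.

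A p that misses a threshold does not show that an mRNA was level, so the 95% confidence interval of each change was set against the 1.5-fold minimum, 0.58 on the log2 scale. By that measure 6 of the 8 were level, with the whole interval inside 1.5-fold in both directions: *ACTB*, *HPRT1*, *TBP*, *GUSB*, *YWHAZ* and *PPIA*. This held for 53.7% of all tested genes, which include many at lower level. With at least 10 counts required in every library, 7777 of 13122 genes were level, and so were the same 6 of the 8. The intervals of *SDHA* and *RPLP0* reached beyond 1.5-fold. For 1 of the 8, *ACTB*, the 3 IGF2BP3 values were all higher than the 3 IgG values, an order seen in 12.0% of tested genes. For 1, *HPRT1*, they were all lower, the order seen in 8.69%. For the other 6 the groups overlapped.

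**Figure D1:**
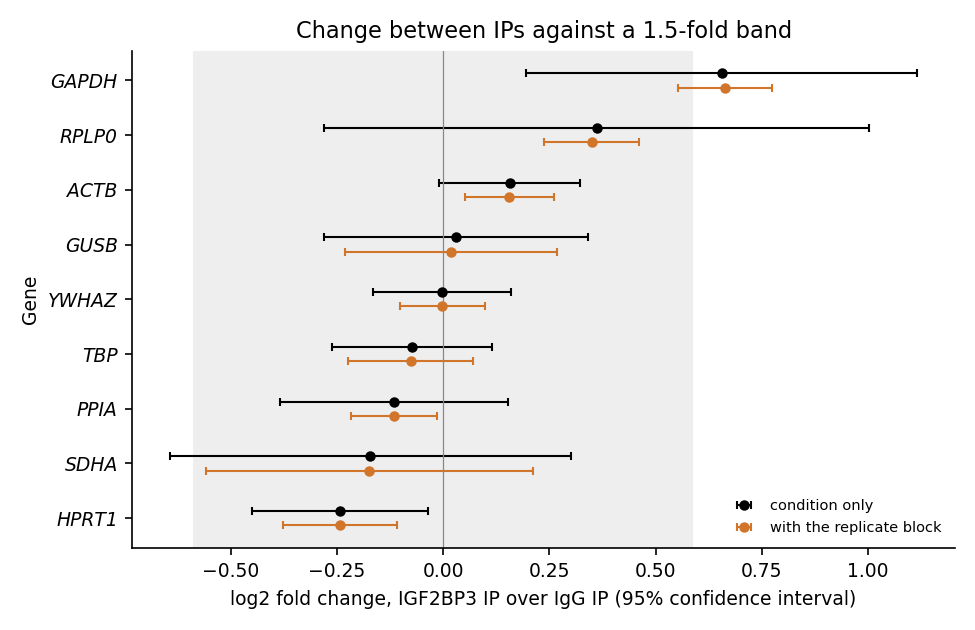
The log2 change of IGF2BP3 IP over IgG IP is plotted for the 8 reference mRNAs and *GAPDH*, with 95% confidence intervals from edgeR without and with the replicate number as a block and the range within 1.5-fold shaded. Without the block, the intervals of *SDHA* and *RPLP0* leave the shaded range, and with it those of all 8 lie inside, while *GAPDH* is at 0.66.

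*YWHAZ* and *TBP* varied least between the 6 libraries. *YWHAZ* encodes the zeta member of the 14-3-3 proteins, adaptors that bind phosphorylated partners. Replicates 1 to 3 had 2957, 2991 and 2985 normalized CPM with IgG and 2930, 3062 and 2929 with the IGF2BP3 antibody. The IgG values lie within the range of the IGF2BP3 values. Its log2 change was -0.0020 (standard error 0.07, 95% interval -0.16 to 0.16, adjusted p = 1.00 from edgeR). Over the 6 libraries the SD of its log2 CPM was 0.024, and 0.062% of tested genes had a smaller one. None of the 18 genes of similar level (within 1.5-fold) did.

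*TBP* encodes the TATA-binding protein, the core of the general transcription factor TFIID. It had 59.2, 59.5 and 61.4 normalized CPM in IgG replicates 1 to 3 and 59.3, 54.4 and 57.5 in IGF2BP3 replicates 1 to 3. Replicates 2 and 3 of the IGF2BP3 IP were the lowest, and the groups overlapped through replicate 1. The log2 change was -0.07 (standard error 0.08, 95% interval -0.26 to 0.12, adjusted p = 0.77 from edgeR).

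*ACTB* encodes β-actin, the cytoplasmic actin of the cytoskeleton. With IgG it reached 1105, 1110 and 1149 normalized CPM (1121 ± 23.9, SD, n = 3), and with the IGF2BP3 antibody 1274, 1202 and 1272 (1250 ± 41.2, SD, n = 3). The groups did not overlap (two-sided exact permutation test, p = 0.10, the lowest p possible with 3 libraries a group). The log2 change was small, 0.16 (standard error 0.07, 95% interval -0.01 to 0.32, adjusted p = 0.42 from edgeR). Within same-numbered pairs the differences were 0.21, 0.12 and 0.15, all positive. With the replicate number as a block, the edgeR adjusted p was 0.036 at a log2 change of 0.16, below the 1.5-fold minimum. Without replicate 1 of both IPs the change was 0.13 (edgeR adjusted p = 0.084). With the GC correction it was 0.028 (edgeR adjusted p = 0.93, and 0.76 with the block as well). At an adjusted p under 0.05 with the block and any fold, 10.9% of tested genes were higher and 5.23% lower. *ACTG1*, the other cytoplasmic actin, whose 3′ UTR lacks the element shown above, changed by 0.10 (95% interval -0.07 to 0.28), and the intervals of both actins overlap.

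*HPRT1* encodes hypoxanthine phosphoribosyltransferase, an enzyme of purine salvage. In normalized CPM it measured 134, 131 and 125 in the IgG replicates and 99.8, 122 and 109 in the IGF2BP3 replicates, with every IGF2BP3 value below every IgG value (exact two-sided permutation test, p = 0.10). Replicate 1 of the IGF2BP3 IP was the lowest of all. This gave a log2 change of -0.24 (standard error 0.09, 95% interval -0.45 to -0.04, unadjusted p = 0.026 and adjusted p = 0.30 from edgeR), so that a decrease of more than 1.5-fold lies outside the interval. The 3 pairs differed by -0.42, -0.11 and -0.21. With the block the edgeR adjusted p was 0.012. Without replicate 1 of both IPs the log2 change was -0.15 (edgeR adjusted p = 0.17).

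*PPIA* encodes cyclophilin A, a peptidyl-prolyl isomerase, and was the most abundant of the 8 by TPM, the RSEM values corrected for transcript length and library size. The IgG libraries held 3078, 2471 and 2524 normalized CPM and the IGF2BP3 libraries 2814, 2212 and 2426. Replicate 1 was the highest in both IPs, by 0.30 and 0.28 on the log2 scale over the other replicates, a larger step than that between the IPs. A log2 change of -0.12 was fitted (standard error 0.12, 95% interval -0.38 to 0.15, adjusted p = 0.74 from edgeR), and all 3 pairs were lower, by -0.13, -0.16 and -0.06. Leaving out 1 library moved it from -0.21, without IGF2BP3 IP replicate 1, to -0.0054, without IgG IP replicate 1. The annotation holds 89 processed pseudogenes named after *PPIA*, copies without introns, and these took 4.78% to 5.88% of the summed counts of gene and copies. Most were on *PPIAP22*, with 1379 to 1925 counts per library. With the pseudogene counts added the log2 change was -0.11.

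*GUSB* encodes β-glucuronidase, a lysosomal hydrolase, and had only 125 to 202 counts per library. These came to 13.5, 13.5 and 12.6 normalized CPM for IgG and 15.2, 12.1 and 13.2 for IGF2BP3. The IGF2BP3 values span the IgG values. Between the IPs the log2 change was 0.03 (standard error 0.14, 95% interval -0.28 to 0.34, adjusted p = 0.96 from edgeR). The 17 pseudogenes named after *GUSB* held more signal than the gene, 73.0% to 79.9% of the summed counts and 92.4% to 94.8% of the summed TPM, and *GUSBP1* alone had 249 to 298 counts. With all pseudogene counts added the log2 change was 0.03 and still level (95% interval -0.24 to 0.30).

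*RPLP0* encodes a protein of the ribosomal P stalk. It was found at 423, 231 and 255 normalized CPM in the IgG replicates and at 561, 297 and 309 in the IGF2BP3 replicates. Replicate 1 was far above replicates 2 and 3 in both IPs, by 0.80 and 0.89 on the log2 scale, and IgG replicate 1 lay above IGF2BP3 replicates 2 and 3 (exact two-sided permutation test, p = 0.50). Its log2 change was 0.36 (standard error 0.28, 95% interval -0.28 to 1.00, adjusted p = 0.64 from edgeR). Leaving out 1 library at a time moved it from 0.0015, without IGF2BP3 IP replicate 1, to 0.68, without IgG IP replicate 1. Within pairs the differences were alike, 0.41, 0.36 and 0.28. With the block the log2 change was 0.35 (95% interval 0.24 to 0.46, edgeR adjusted p = 5.0e-05), and without replicate 1 of both IPs it was 0.32 (0.20 to 0.44, edgeR adjusted p = 0.00083). In both of these fits *RPLP0* was higher in the IGF2BP3 IP, by less than 1.5-fold over the whole interval.

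*SDHA* encodes the flavoprotein subunit of succinate dehydrogenase, which works in both the citric acid cycle and the respiratory chain. Only 59 to 85 counts a library fell on it. That is 7.26, 5.70 and 4.92 normalized CPM for IgG and 5.46, 4.46 and 5.85 for IGF2BP3, with overlapping groups. The fitted log2 change was -0.17 (standard error 0.21, 95% interval -0.64 to 0.30, adjusted p = 0.79 from edgeR). Leaving out 1 library moved it from -0.29, without IgG IP replicate 3, to -0.018, without IgG IP replicate 1. The pairs disagreed in sign, at -0.41, -0.35 and 0.25. With the block (95% interval -0.56 to 0.21) and without replicate 1 of both IPs (-0.51 to 0.41) the interval lay inside 1.5-fold. With the block in DESeq2 (-0.81 to 0.44) and with the GC correction and the block (-0.65 to 0.12) it did not. So 8 of the 8 mRNAs were level with the block in edgeR, against 65.7% of tested genes. In each of those other fits with the block, 7 of the 8 were level. Over all genes of these fits, 7732 of 29184 were level with DESeq2 and the block. With the GC correction and the block it was 9859 of 14479.

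The counts of *SDHA* were low for its TPM. Per kilobase and per TPM it had 0.098 of the median count over 11050 genes, and 1.09% of genes had less. On the same strand, the annotation places the gene *AC021087.5* over 1870 of the 2693 exon bases of the canonical *SDHA* transcript (69.4%). The 3 *SDHA* pseudogenes held 65.7% to 72.9% of the summed counts but 9.66% to 14.9% of the summed TPM. *PPIA* was also low by this measure, at 0.26 of the median. The other 6 ran from 0.48 (*YWHAZ*) to 1.41 (*ACTB*). The part that the overlapping gene and the copies have in these low counts was not tested. With all pseudogene counts added, the log2 change of *SDHA* was -0.04 (95% interval -0.44 to 0.35), inside 1.5-fold.

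**Figure D2:**
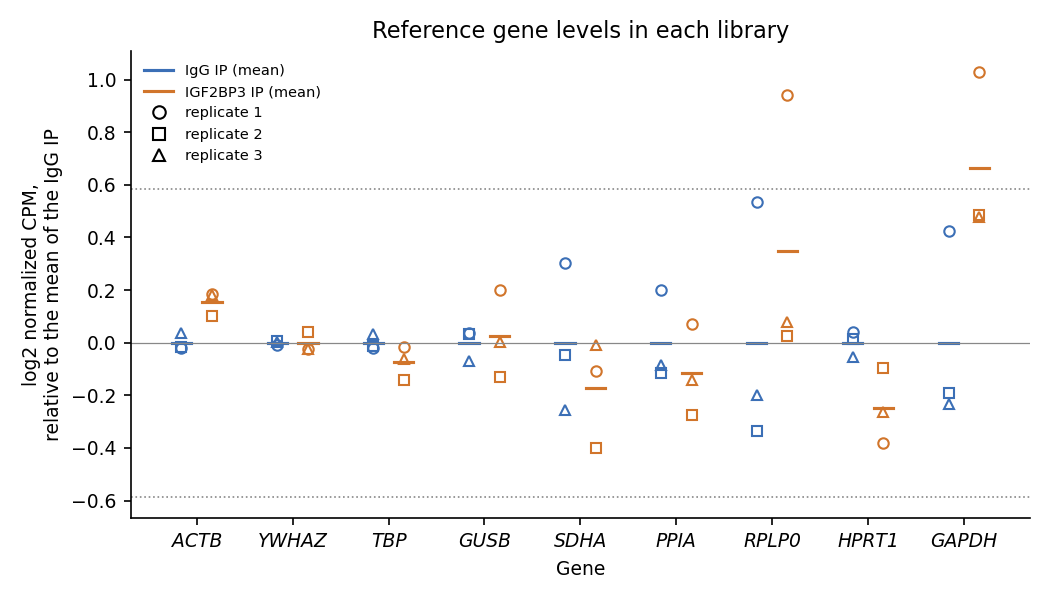
The log2 normalized CPM of each reference mRNA and of *GAPDH*, relative to the gene's mean in the IgG IP, is plotted for each library, with blue for IgG IP, orange for IGF2BP3 IP, a symbol per replicate number, bars for the mean of each IP and dotted lines at 1.5-fold. Replicate 1 (circles) stands above the others in both IPs for *RPLP0*, *PPIA* and *GAPDH*, whereas the 6 points of *YWHAZ* lie close to 0.

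Compared per length, as TPM, the order of the 8 mRNAs was the same in both IPs. *PPIA* led with 6715 ± 602 TPM in the IgG IP and 6791 ± 405 in the IGF2BP3 IP (SD, n = 3). *YWHAZ* followed with 1769 ± 318 and 2014 ± 332 TPM, then *ACTB* with 644 ± 140 and 783 ± 122 TPM. *RPLP0* had 392 ± 47.2 and 557 ± 119 TPM, and *HPRT1* 146 ± 20.2 and 142 ± 33.3 TPM. The lowest were *TBP* (38.3 ± 9.27 and 39.2 ± 3.91 TPM), *SDHA* (33.9 ± 6.73 and 31.2 ± 3.99 TPM) and *GUSB* (6.74 ± 1.92 and 7.64 ± 0.592 TPM). Neighbours in this order did not overlap in their library values, except *TBP* and *SDHA* in the IgG IP and *ACTB* and *RPLP0* in the IGF2BP3 IP.

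The changes read from TPM were shifted upward together. With limma-trend on log2(TPM + 1) the median change of all tested genes was 0.11, against -0.01 from the counts. On that scale *TBP* changed by 0.06, *PPIA* by 0.02 and *YWHAZ* by 0.19, each negative in the counts, and relative to the shift of 0.11 *TBP* and *PPIA* stayed below the median gene. The intervals were wider, and 4 of the 8 (*HPRT1*, *TBP*, *SDHA* and *PPIA*) were level, against 4403 of all 14507 tested genes in that fit. *ACTB* at 0.29, *GUSB* at 0.19, *YWHAZ* at 0.19 and *RPLP0* at 0.49 had intervals that reached past 1.5-fold. None passed the thresholds on TPM, where 0 of all tested genes did.

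**Figure D3:**
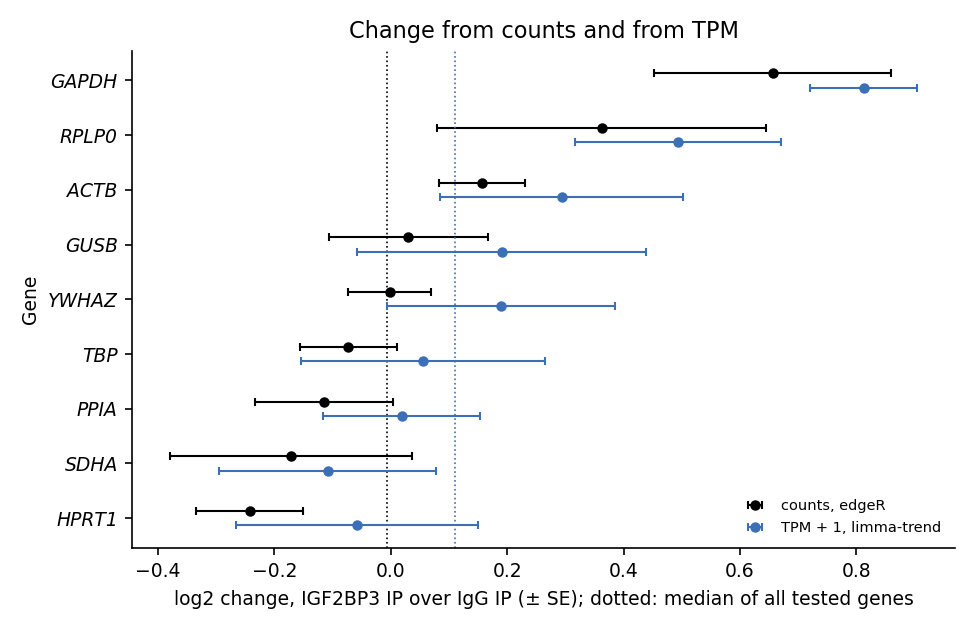
The log2 change of each reference mRNA and of *GAPDH* with its standard error is plotted from the counts (edgeR) and from log2(TPM + 1) (limma-trend), with the median of all tested genes as a dotted line in the same colour. All 9 estimates lie further right with TPM, as does the median, at 0.11 against -0.01.

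As for the spread between libraries, the median SD of log2 CPM over the 6 libraries was 0.14 for the 8 mRNAs and 0.22 for all tested genes, which include many at lower level. *SDHA*, with an SD of 0.24, and *RPLP0* lay above that value. The SD of *RPLP0* was 0.48, larger than that of 98.3% of the 634 genes of similar level. The geNorm measure M, the mean SD of the log2 ratio of a gene to each of the other 7, was lowest for *TBP* (0.19), followed by *GUSB* (0.19), *YWHAZ* (0.20), *PPIA* (0.20) and *ACTB* (0.22). *SDHA* had 0.26, *HPRT1* 0.27 and *RPLP0* 0.47. Within the IgG IP alone *HPRT1* had the lowest M, 0.15, whereas within the IGF2BP3 IP alone it had 0.30, and *RPLP0* had the highest M within each IP (0.41 and 0.48).

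**Figure D4:**
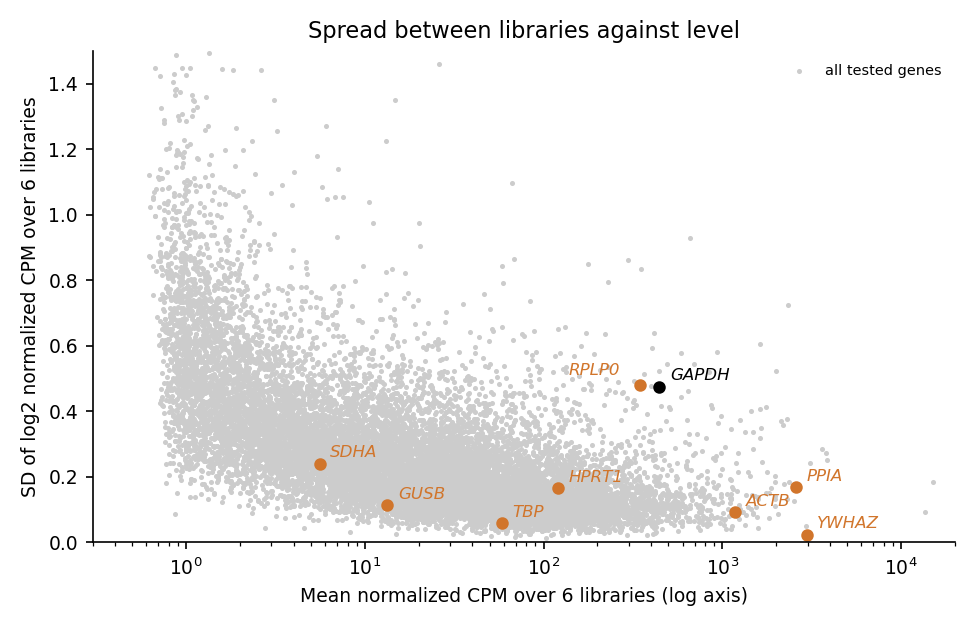
The SD of log2 normalized CPM over the 6 libraries is plotted against the mean normalized CPM (log axis) for all tested genes in grey, of which 37 lie above the axis limit of 1.5, with the 8 reference mRNAs and *GAPDH* marked. *YWHAZ* lies at the lower edge at 0.024, and *RPLP0* and *GAPDH* both lie near 0.48.

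The 8 mRNAs were also set against each other. Of their 28 ratios, 4 separated the IPs without overlap: *ACTB* to *YWHAZ* (log2 difference 0.16), *ACTB* to *TBP* (0.23), *ACTB* to *HPRT1* (0.40) and *HPRT1* to *YWHAZ* (-0.25), each at p = 0.10 in the exact two-sided permutation test before adjustment over the 28. Among single tested genes, 12.0% were all higher and 8.69% all lower in the IGF2BP3 IP. The share over ratios of other genes was not counted, so the 4 are a description only. The ratio of *TBP* to *YWHAZ* was the steadiest, with an SD of 0.075 over the 6 libraries. The ratio of *HPRT1* to *RPLP0* was the least steady, with an SD of 0.59.

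*GAPDH*, the glycolytic enzyme to which the study normalized its RT-qPCR, changed more than any of the 8. The IgG replicates had 453, 296 and 288 normalized CPM and the IGF2BP3 replicates 690, 473 and 471, all 3 above the highest IgG value. The log2 change was 0.66 (95% interval 0.20 to 1.12, adjusted p = 0.21 from edgeR, and 2.1e-09 with the block, where 3.56% of tested genes were past the thresholds and higher). The call depended on the fit. *GAPDH* also passed with DESeq2, the program the study used for its calls (0.65, adjusted p = 0.041). It passed with every gene of at least 1 count in edgeR (0.65, adjusted p = 5.7e-09) and without replicate 1 of both IPs (0.69, edgeR adjusted p = 1.1e-08). With the GC correction and the block it did not, at 0.52, below the 1.5-fold minimum. Of the 6 edgeR fits without 1 library it passed in 1, without IgG IP replicate 1 (0.90, adjusted p = 0.031), and the other 5 ran from 0.45 to 0.75 with adjusted p from 0.29 to 0.49. Relative to each of the 8 in the same library, it was higher by 0.31 (*RPLP0*) to 0.91 (*HPRT1*) on the log2 scale. The groups of 6 of these 8 ratios did not overlap. All 8 share the *GAPDH* values, and the share over ratios of other genes was not counted. The exceptions were the ratios to *ACTB* (0.51, exact two-sided permutation test, p = 0.30) and to *RPLP0* (0.31, p = 0.20, same exact test), and all 3 pairs were higher for each of the 8 ratios.

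The size read for a target moved with the reference. *HMGA1*, an architectural chromatin protein, and *ZMIZ1*, a transcriptional coactivator, were followed by the study as top hits of these libraries, so their rise is no independent evidence, and *MYC* was its negative control. Relative to the 8 references, *HMGA1* was higher in the IGF2BP3 IP by 1.20 (*RPLP0*) to 1.80 (*HPRT1*) on the log2 scale, or 2.30-fold to 3.47-fold. The groups did not overlap for 8 of 8 references, and relative to the mean of the 8 the difference was 1.56. No share over other genes was counted for such ratios, here or for *ZMIZ1* below. Relative to *GAPDH* it was 0.88.

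*ZMIZ1* was higher by 1.16 (*RPLP0*) to 1.76 (*HPRT1*), or 2.24-fold to 3.38-fold, and by 1.52 relative to the mean of the 8. Its groups did not overlap for 7 of the 8, the exception being *RPLP0* (exact two-sided permutation test, p = 0.20). Relative to *GAPDH* the difference was 0.85, and the groups overlapped (p = 0.30, same exact test). Single libraries moved these values. Relative to *GAPDH* the difference was 0.50 with IgG IP replicate 1 left out and 1.11 with IGF2BP3 IP replicate 1 left out, and relative to *RPLP0* it was 0.76 and 1.54 in the same order. The ratios without overlap had p = 0.10 in that exact test and 0.17 after Benjamini-Hochberg adjustment over 30 ratios, so none could pass 0.05 in this design. All 3 pairs were higher for *HMGA1* and *ZMIZ1* with every reference (exact sign-flip permutation test, p = 0.25, the lowest possible with 3 pairs).

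*MYC*, with 5 to 14 counts per library, differed by -0.31 (*RPLP0*) to 0.29 (*HPRT1*), by 0.05 relative to the mean of the 8, and by -0.63 relative to *GAPDH*, with overlapping groups throughout. In pair 1 it was higher with each of the 8, and in pairs 2 and 3 lower, so that no direction can be read at these counts.

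**Figure D5:**
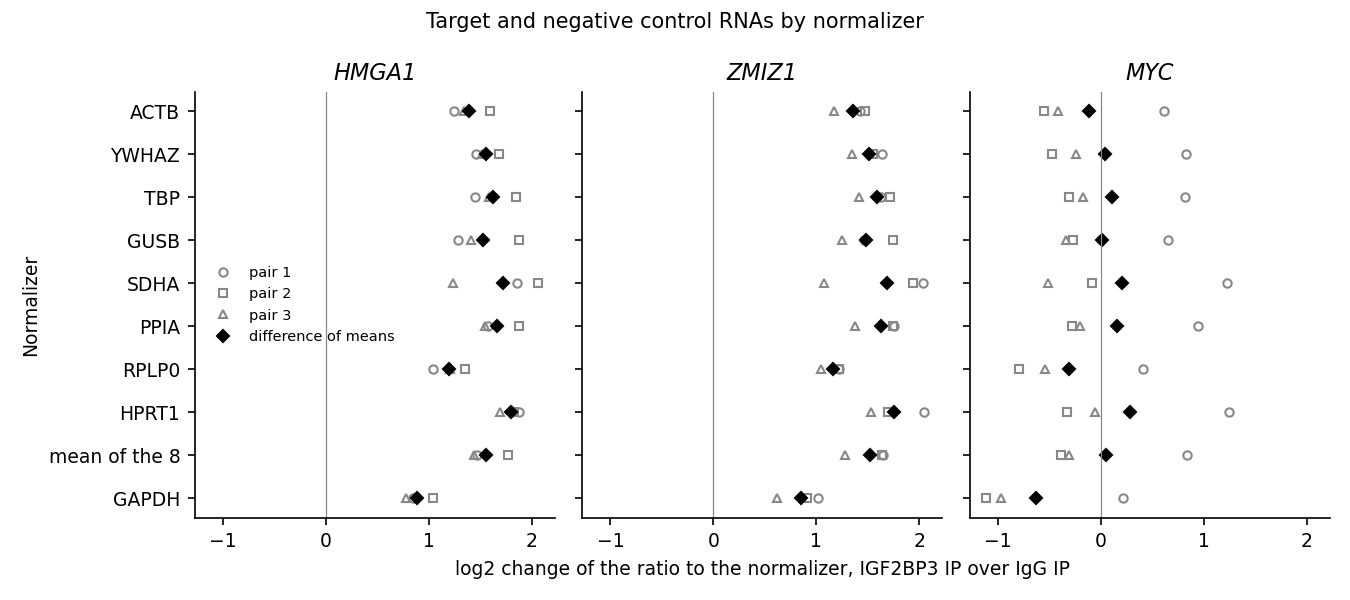
The log2 change of the ratio of *HMGA1*, *ZMIZ1* and *MYC* to each reference mRNA, to the mean of the 8 and to *GAPDH* is plotted, with open symbols for the same-numbered pairs and a filled diamond for the difference of means. For *HMGA1* the diamonds run from 1.20 to 1.80 over the 8 references against 0.88 for *GAPDH*, and those of *MYC* scatter around 0.

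Of 34 other genes of common endogenous control panels, 34 were tested, 0 were past the thresholds (1.16% of all tested genes) and 24 were level (53.7% of all). Their median log2 change was -0.04. The IGF2BP3 values were all higher than the IgG values for 3 (12.0% of all) and all lower for 4 (8.69% of all). The largest changes up were *GAPDH* and *ABL1*, a tyrosine kinase (0.60, 95% interval 0.06 to 1.15, adjusted p = 0.34 from edgeR). The largest down were the mitochondrial *MT-ATP6* (-0.37, adjusted p = 0.27) and *B2M*, the light chain of MHC class I (-0.30, adjusted p = 0.53). With the block, *GAPDH* and *ABL1* (edgeR adjusted p = 1.2e-04) passed the thresholds, 2 of 34 against 3.56% of all.

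Of the listed genes of the same families and complexes as the 8, 0 passed the thresholds without the block, against 1.16% of all tested genes, and their counts of level genes stand against 53.7% over all tested genes. Of the 6 other 14-3-3 genes 5 were level, from -0.15 (*YWHAE*) to 0.10 (*SFN*). Of the 7 genes for other subunits and assembly factors of succinate dehydrogenase 6 were level and 0 were positive, the lowest being *SDHAF4* (-0.26) and *SDHD* (-0.24). Of the 15 other cyclophilin genes 12 were level, and the extremes, *PPIL6* (-0.60) and *PPIC* (0.40), had 11 to 36 counts per library.

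Of the 16 TFIID and TBP-like genes 12 were level. *TAF6*, a TFIID subunit, changed by 0.60 (95% interval 0.21 to 0.98, adjusted p = 0.17 from edgeR) and passed with the block (edgeR adjusted p = 0.00097), while *TAF3* had -0.33. The other P stalk genes, *RPLP1* (0.19) and *RPLP2* (-0.01), had intervals beyond 1.5-fold, as did *RPLP0*. In purine salvage, 3 of 4 listed genes were tested and 2 were level, with *APRT* at 0.43 and *ADK* at -0.17. Of 7 listed partner hydrolases of glycosaminoglycan breakdown, 6 were tested and 4 were level, from -0.05 (*IDS*) to 0.33 (*GLB1*). Of the 5 other actin genes, only *ACTG1* was tested.

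The genes whose log2 CPM followed the mean of the 8 most closely over the 6 libraries were *ATP5F1D* (Pearson r = 0.998), *RPL3* (0.997) and *RPS27A* (0.994). This is a description over 6 libraries, the best of all tested genes, and those libraries share the step of replicate 1. The mean log2 CPM of the 8 was 7.56 ± 0.12 in the IgG IP and 7.55 ± 0.11 in the IGF2BP3 IP (SD, n = 3), a difference of -0.01.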

How the data were processed

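RIP-seq of WaGa cells gave 3 IgG IP and 3 IGF2BP3 IP libraries, grouped by their titles. Reads were aligned by the authors with STAR 2.7.9a (GRCh38) and quantified with RSEM and a GENCODE annotation. The counts they deposited are whole numbers of reads for each gene, not normalized. The TPM values deposited by the authors are RSEM estimates, and their FPKM values were not used here. The counting program and its use of strand are not given in the sources used here, so overlapping genes and near-identical copies are uncertain.

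Counts were filtered with filterByExpr and scaled with TMM, and IGF2BP3 IP was compared with IgG IP by edgeR 4.0.16 under R 4.3.3 (quasi-likelihood test, no other covariate), with Benjamini-Hochberg adjustment over all 14507 tested genes. Standard errors and 95% intervals come from the F statistic and the degrees of freedom of that fit. The common biological coefficient of variation was 13.4%, and library totals ran from 9758759 to 14886414 counts. Normalized CPM use TMM library sizes. Single values and ratios were compared with exact permutation tests (scipy 1.17.1). The steps were tested on simulated data.

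For replicates 1, 2 and 3, the deviations of the IgG and the IGF2BP3 library from the mean of their IP correlated over genes at 0.57, 0.28 and 0.23. The titles state no pairing. A fit with the number as a block is given as an alternative where it changes a call. The cross pairs of replicates 2 and 3 correlated at 0.28 and 0.27. These values therefore show the step shared by replicate 1 and do not tell same-numbered from cross pairs of replicates 2 and 3.

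Alternatives were DESeq2 1.42.0 (with and without the block), RLE factors, library totals, other filters, limma-voom, limma-trend on the TPM plus 1 or plus 0.1 as log2 values (limma 3.58.1), a loess correction for GC content (span 0.5), pseudogene counts added to their parent gene, and leaving out each library. Adding the pseudogenes of every kind, and leaving out replicate 1 of both IPs, were added after seeing the data. Annotation and 3′ UTRs came from GENCODE 44 on GRCh38. The reference genes, gene lists and tests were chosen with earlier results of these data known. Named were the 8 genes, *GAPDH*, *HMGA1*, *ZMIZ1* and *MYC*, from each list the genes past the thresholds with or without the block and those among the 2 largest changes in each direction, and the 3 tested genes most correlated with the mean of the 8.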

Additional observations from a re-analysis of the deposited data

How the results depend on the processing

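In 21 of 21 alternatives 0 of the 8 reference mRNAs passed the thresholds. The number that were level, 6 in the fit without a block, lay between 4 (both fits on TPM) and 8 (edgeR with the replicate block, and without replicate 1 of both IPs). Of all 14507 tested genes, 7791 were level in the fit without a block and 9534 with it in edgeR. On TPM plus 1 it was 4403, and on TPM plus 0.1 it was 2893. Without replicate 1 of both IPs, 8909 of 14677 were level. *HPRT1*, *TBP* and *PPIA* were level in 21 of 21 alternatives, *ACTB*, *GUSB* and *YWHAZ* in 19, *SDHA* in 7 and *RPLP0* in 6. In edgeR the replicate block changed the level call of *SDHA* and *RPLP0* and no other call among the 8, and in DESeq2 and with the GC correction it changed that of *RPLP0*, where *SDHA* was not level. Estimates near 0 changed sign. *GUSB* went from 0.03 to -0.10 with the GC correction, -0.11 with the GC correction and the replicate block, -0.025 with processed pseudogene counts added, and between -0.063 and 0.10 with libraries left out, including -0.046 without replicate 1 of both IPs. *YWHAZ* went from -0.0020 to 0.040 with library totals, 0.19 on both TPM scales, and 0.069 with the GC correction, also with the replicate block. It lay between -0.028 and 0.0082 with libraries left out. On TPM, *PPIA* was at 0.018 on both scales, and *TBP* at 0.055 and 0.057. The ratios of *MYC* lay, with libraries left out, between -0.24 and 0.21 relative to the mean of the 8, between -0.33 and 0.018 relative to *ACTB*, -0.23 and 0.14 for *GUSB*, -0.17 and 0.34 for *PPIA*, -0.17 and 0.43 for *SDHA*, -0.10 and 0.25 for *TBP*, and -0.18 and 0.17 for *YWHAZ*. Of all tested genes, 169 were higher and past the thresholds, against 281 with DESeq2, 321 with DESeq2 and the block, 517 with the block in edgeR, 359 with every gene of at least 1 count, 81 with the GC correction, 272 with that and the block, 0 on both TPM scales and 466 without replicate 1 of both IPs. Without 1 library the number lay between 0 (IGF2BP3 IP replicate 2) and 244 (IGF2BP3 IP replicate 1). *MYC* had 5 to 14 counts per library, *SDHA* 59 to 85 and *GUSB* 125 to 202.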
